A study of Mus musculus with 4 samples.

Results

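Synaptotagmins and complexins, the calcium sensors and clamps of vesicle release, were followed gene by gene through the cell classes of the posterior substantia innominata of the mouse. The 10 genes, taken as a list by name out of 31899 genes present in all libraries, were Syt2, Syt4, Syt6, Syt7, Syt9, Syt10 and Syt17, and Cplx1, Cplx2 and Cplx3. Of these 10, 9 had enough counts to be tested, and Cplx3 did not. All 10 are protein-coding genes of GRCm38 (GENCODE annotation): Syt2 at chr1:134646677-134762593, Syt6 at chr3:103575231-103645569, Syt7 at chr19:10389090-10453180, Syt9 at chr7:107370728-107548656, Syt10 at chr15:89782393-89841860 and Syt17 at chr7:118380717-118448222. The complexins lie at chr5:108518554-108550024 (Cplx1), chr13:54371349-54383917 (Cplx2) and chr9:57599992-57606281 (Cplx3), and Syt4 lies on chromosome 18.

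Synaptotagmins carry a pair of calcium-binding domains, sit mostly on vesicles, and couple the entry of calcium to membrane fusion. Syt1, Syt2 and Syt9 are the fast sensors of synchronous transmitter release, Syt7 is a slower sensor of high affinity, and Syt4 and Syt17 are family members whose domains bind calcium poorly or not at all. Complexins are small proteins that bind the assembled SNARE complex, holding vesicles ready and aiding fast fusion; Cplx1 and Cplx2 are the forms of most central neurons and Cplx3 that of retinal and some cortical neurons.

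Promoter sequence is shown for 3 genes that stand for the range of levels found: Syt2, highest in Slc17a6 neurons, Syt10, highest in GABAergic neurons of the Drd1 and Drd2 type, and Cplx3, close to 0 in every class. Each line gives the 250 bases before a RefSeq start of the gene, 5′ to 3′ on its strand, in build GRCm38.p6. Capitals mark GGGCGG on either strand, the letters of an Sp1 box. The windows are chr1:134646362-134646611 on the plus strand for Syt2, chr15:89841861-89842110 on the minus strand for Syt10 and chr9:57606282-57606531 on the minus strand for Cplx3.
Syt2: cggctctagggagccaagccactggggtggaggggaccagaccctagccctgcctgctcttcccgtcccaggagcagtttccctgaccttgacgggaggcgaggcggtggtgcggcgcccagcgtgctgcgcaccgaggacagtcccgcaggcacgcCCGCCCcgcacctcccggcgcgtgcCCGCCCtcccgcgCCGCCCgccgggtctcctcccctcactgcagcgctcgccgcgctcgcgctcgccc
Syt10: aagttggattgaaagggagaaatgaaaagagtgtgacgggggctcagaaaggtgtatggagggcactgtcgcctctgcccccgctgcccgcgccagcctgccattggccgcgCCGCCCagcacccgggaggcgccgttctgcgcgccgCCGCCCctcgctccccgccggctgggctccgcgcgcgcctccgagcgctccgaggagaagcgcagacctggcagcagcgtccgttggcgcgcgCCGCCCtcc
Cplx3: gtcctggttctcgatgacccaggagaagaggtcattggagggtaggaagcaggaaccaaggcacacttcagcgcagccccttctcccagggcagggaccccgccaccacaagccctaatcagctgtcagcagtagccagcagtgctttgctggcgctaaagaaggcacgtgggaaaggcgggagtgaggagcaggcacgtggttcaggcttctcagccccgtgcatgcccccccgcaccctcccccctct
The Syt2 window shown held 3 matches and 30 CpG, the Syt10 window 3 matches and 32 CpG, and the Cplx3 window 0 matches and 9 CpG. Syt2 has another RefSeq start, whose window (chr1:134709050-134709299, not shown) held 2 matches and 22 CpG. The window of Cplx2, a gene well above 0 in neurons, held 0 matches and 7 CpG. It is not shown because its RefSeq start lies upstream of the gene start given above. Whether matches go with level was not tested. Across all 32851 windows of that length, 32.7% held GGGCGG, 12.4% held TATAAA, and the median was 6 CpG. None of the 10 windows of the 7 matched genes held TATAAA on either strand. RefSeq entries were matched for 7 of the 10 genes, all but Syt4, Syt7 and Syt17. A match describes the letters of the window and nothing more.

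Nuclei of this basal forebrain region were profiled in wild-type mice aged 8 weeks by droplet single-nucleus RNA sequencing, which counts unique molecular identifiers (UMIs) of nuclear transcripts. There were 2 libraries from males and 2 from age-matched females, and the stated aim was to measure sex differences in neurons. No treatment, transgene or Cre driver is named, and whether each library is its own animal or pool is not in the labels, so p-values reflect the spread between libraries, possibly technical only. Kept nuclei numbered 8577 to 10881 per library, and the median UMIs per nucleus were 10406 (male 1), 10015 (male 2), 4192 (female 1) and 3806 (female 2). Depth, gene list, barcode set and the software version in the file headers changed with sex, so sex and library preparation cannot be told apart. The females also differed from each other. Their header version was 7.0.0 in female 1 and 7.2.0 in female 2. The share of UMIs in the genes present in all libraries was 97.7% in female 1, 99.6% in female 2 and 99.5% in each male. The 2 male libraries had 23 cell barcodes in common and the 2 female libraries 35; across the sexes there were 0. The females stood further apart than the males: over the genes of GABAergic nuclei, chi-square per degree of freedom between libraries was 89.35 for the females and 2.60 for the males.

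A nucleus was put in a class by its raw UMIs of the class genes: Chat and Slc5a7 (cholinergic), Gad1 and Gad2 (GABAergic), Slc17a6 or Slc17a7 (glutamatergic), and markers of astrocytes, oligodendrocytes, oligodendrocyte precursors (OPCs) and microglia. GABAergic nuclei were split further by Drd1, Drd2, Tshz1, Moxd1 and Sst. The GABAergic class held 2737 to 3913 nuclei per library, the cholinergic class 76 to 136 and the Slc17a6 class 128 to 344. Nuclei in none of the classes ranged from 19.7% (male 1) to 47.7% (female 1) of a library, with 21% in male 2 and 46.2% in female 2. Markers that the rule did not use set some classes apart and not others. The summed cholinergic markers reached 162 to 216 counts per 1000000 UMIs (CPM) in cholinergic nuclei and 16.4 to 31.4 CPM in GABAergic nuclei, and oligodendrocyte markers 6726 to 7925 CPM against 99 to 256 CPM in GABAergic nuclei. The listed Slc17a6 markers did not set the Slc17a6 class apart, at 82.3 to 158 CPM there and 249 to 440 CPM in astrocytes, so that class is named for its gene alone. The listed GABAergic markers were higher in astrocytes (566, 562, 360 and 660 CPM in the order male 1, male 2, female 1, female 2) than in GABAergic nuclei (502, 513, 227 and 431 CPM), so they did not set that class apart from glia. Likewise Npy and Nos1 together were no higher in Sst GABAergic nuclei (28.2 to 103 CPM) than in cholinergic nuclei (102 to 153 CPM). Slc17a7, Drd1 and Sst nuclei fell under 30 in at least 1 library (2, 18 and 5 nuclei in female 1), and were compared only where a library had 20 or more, a minimum set after the counts were seen.

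**Figure D1:**
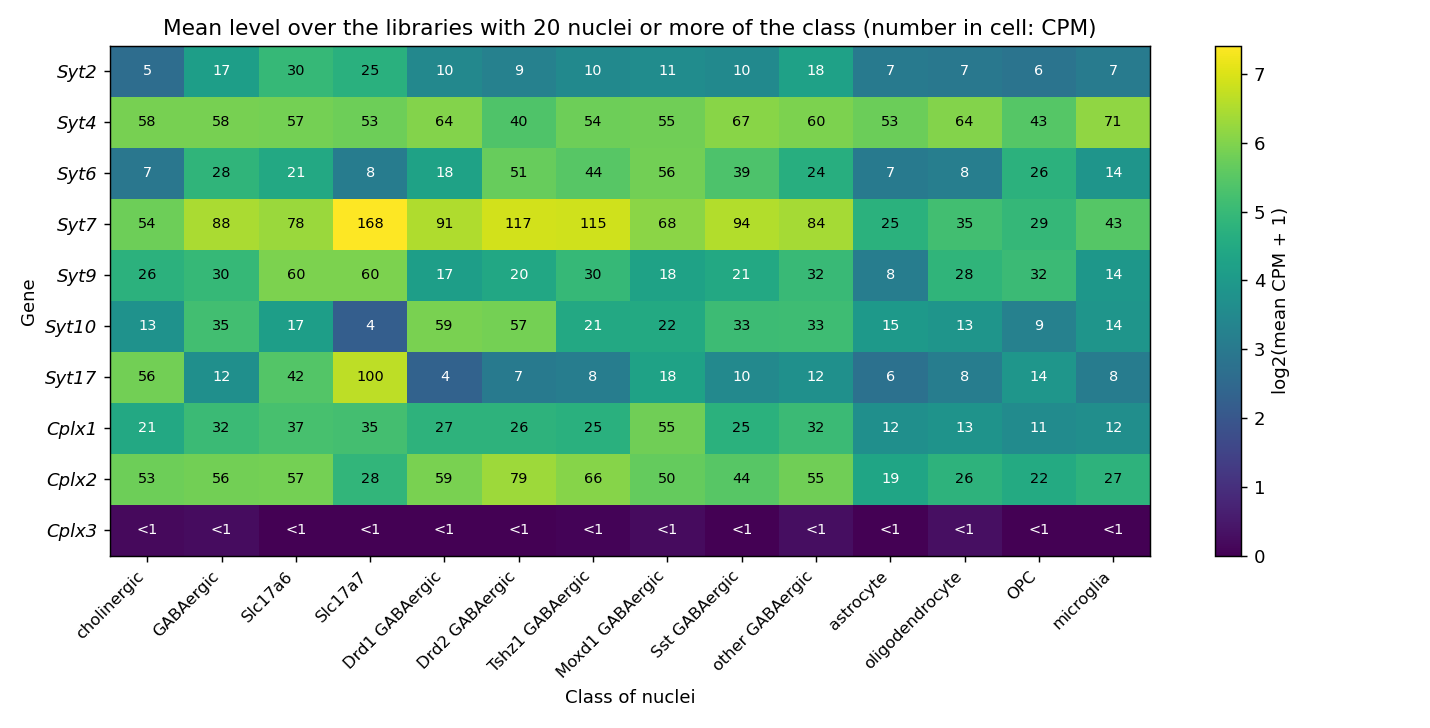
Mean level in CPM of the 10 genes (rows) in the classes of nuclei (columns), with colour on the scale log2(CPM + 1) and the mean in each cell, over the libraries with at least 20 nuclei of the class. Syt17 was high in cholinergic, Slc17a6 and Slc17a7 nuclei, Syt10 in Drd1 and Drd2 GABAergic nuclei, Syt4 was present in neurons and glia alike, and Cplx3 was below 1 CPM throughout.

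Levels below are the UMIs of a gene in the summed nuclei of a class relative to all UMIs of that class, in CPM. They were not corrected for gene length and are not compared between genes. Differences are log2 folds with standard errors (SE) from edgeR's quasi-likelihood test over all genes of the summed counts, with Benjamini-Hochberg adjustment and a threshold of 0.05. Each class was set against the mean of the other neuron or glial classes, over 4 libraries unless stated.

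Among the fast sensors, Syt2 and Syt9 were both highest in Slc17a6 neurons, of the classes with 30 nuclei in each library. In male 1, male 2, female 1 and female 2, Syt2 stood at 23.9, 22.9, 40.1 and 32.6 CPM in Slc17a6 nuclei, at 13.1, 13.2, 18.8 and 21.3 CPM in GABAergic nuclei, and at 6.63, 8.58, 5.69 and 0 CPM in cholinergic nuclei. The lowest Slc17a6 library was above the highest GABAergic library, and every cholinergic library was below every GABAergic one. Syt2 was 1.53 ± 0.22 (SE, log2 fold) higher in Slc17a6 nuclei than in the other neuron classes (adjusted p = 2.68e-06, edgeR) and fell by 1.77 ± 0.29 in cholinergic nuclei (adjusted p = 1.94e-05). The cholinergic value rests on 11, 15, 6 and 0 UMIs of Syt2. Its Slc17a6 call did not hold among nuclei of 3000 to 10000 UMIs alone, where the log2 fold was 0.97; cholinergic nuclei are too few at that depth, so this alternative sets Slc17a6 against GABAergic nuclei alone. The gene Ppp1r12b overlaps Syt2 on the opposite strand, and no source used here says whether strand entered the counting, so reads of the pair cannot be told apart.

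Syt9, a fast sensor of limbic and striatal neurons, stood at 58.9, 62, 67.6 and 51.6 CPM in Slc17a6 nuclei. GABAergic nuclei held 28.9, 29.3, 31.9 and 29.9 CPM, and cholinergic nuclei 24.7, 26.3, 31.3 and 22 CPM. The Slc17a6 libraries did not overlap those of either other class. Syt9 was 1.09 ± 0.11 higher (log2 fold) in Slc17a6 nuclei (adjusted p = 7.04e-09), and fell by 0.65 ± 0.14 in cholinergic (adjusted p = 0.000483) and by 0.44 ± 0.11 in GABAergic nuclei (adjusted p = 0.0025). Syt1, the main fast sensor of the forebrain, named here after its values were seen, had the other order: its log2 fold was 0.85 ± 0.10 in cholinergic (adjusted p = 7.85e-08) and -0.68 ± 0.11 in Slc17a6 nuclei (adjusted p = 2.13e-05).

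Syt7, the slow sensor tied to asynchronous release and facilitation, was lower in cholinergic nuclei than in the other neurons. Its levels were 47, 49.2, 67.4 and 52.4 CPM in cholinergic nuclei, 78.7, 77.5, 102 and 92.6 CPM in GABAergic nuclei and 65.8, 63.7, 111 and 69.7 CPM in Slc17a6 nuclei. Within each library the cholinergic class was the lowest of the 3. The log2 fold of Syt7 was -0.53 ± 0.12 in cholinergic (adjusted p = 0.00083, edgeR) and 0.40 ± 0.09 in GABAergic nuclei (adjusted p = 0.00214). The latter did not pass among nuclei of 3000 to 10000 UMIs (log2 fold 0.23), where GABAergic nuclei are set against Slc17a6 nuclei alone.

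Syt6 and Syt10, related synaptotagmins with roles in regulated secretion outside the classical synaptic vesicle, were both higher in GABAergic nuclei. Syt6 stood at 27.1, 28.5, 30.2 and 25.1 CPM in GABAergic nuclei and at 8.43, 5.72, 8.54 and 4.19 CPM in cholinergic nuclei, with no overlap. Slc17a6 nuclei varied more, from 13.1 CPM in male 2 to 39.9 CPM in female 2. Syt6 was 1.25 ± 0.19 higher (log2 fold) in GABAergic nuclei (adjusted p = 7.7e-06) and fell by 1.65 ± 0.29 in cholinergic nuclei (adjusted p = 4.62e-05). Syt10 stood at 37.6, 38.7, 33 and 28.9 CPM in GABAergic nuclei, above every library of Slc17a6 nuclei (16 to 18 CPM) and of cholinergic nuclei (19.3, 16.6, 10.4 and 4.19 CPM). The log2 fold of Syt10 was 1.15 ± 0.15 in GABAergic (adjusted p = 5.23e-07) and -0.76 ± 0.21 in cholinergic nuclei (adjusted p = 0.00805). Among nuclei of 3000 to 10000 UMIs neither GABAergic difference passed, with log2 folds of 0.85 for Syt6 and 1.25 for Syt10. With too few cholinergic nuclei at that depth, these folds set GABAergic against Slc17a6 nuclei alone.

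Syt17, a synaptotagmin without a transmembrane segment that is found at internal membranes, was high in cholinergic and Slc17a6 nuclei and low in GABAergic nuclei. It stood at 53.6, 49.2, 48.4 and 73.4 CPM in cholinergic nuclei, at 33.2, 37.6, 27.5 and 69.7 CPM in Slc17a6 nuclei and at 10.6, 10.8, 10.9 and 14.7 CPM in GABAergic nuclei. Every cholinergic and Slc17a6 library was above every GABAergic library, and the first was above the second within each library. Syt17 was 1.41 ± 0.16 higher (log2 fold) in cholinergic (adjusted p = 1.96e-08) and 0.66 ± 0.15 higher in Slc17a6 nuclei (adjusted p = 0.00242), and fell by 2.08 ± 0.14 in GABAergic nuclei (adjusted p = 2.6e-12). In single nuclei, Syt17 had at least 1 UMI in 56.6% (male 1), 46.5% (male 2), 25% (female 1) and 39.7% (female 2) of cholinergic nuclei. The share among GABAergic nuclei was 9.4%, 9.62%, 5.44% and 7.86% in the same order, and among oligodendrocytes 1.58% to 1.97%. Depth differed between these classes, with a median in male 1 of 20420.5 UMIs in cholinergic, 12498 in GABAergic and 2164.5 in oligodendrocyte nuclei. With each nucleus thinned to 2000 UMIs, the cholinergic shares were 11.8%, 6.98%, 2.96% and 11.7%, and the GABAergic shares 1.99%, 1.88%, 1.81% and 2.48%, beside 0.638% to 1.19% of oligodendrocytes, of which 389 to 932 per library were too shallow and left out. In female 1 the cholinergic exact 95% interval (0.813% to 7.41%) held the GABAergic share.

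Syt4, a regulator of dense-core vesicles whose gene is induced by activity, did not pass in any of the 3 neuron class comparisons, with log2 folds of 0.05 ± 0.12 in cholinergic (adjusted p = 0.816) and -0.05 ± 0.10 in GABAergic nuclei (adjusted p = 0.811). Its GABAergic levels were 66.2, 67.4, 35.6 and 64.6 CPM. Female 1 was the lowest library for Syt4 in 10 of the 10 classes and subclasses that had 30 nuclei in every library. The gene Gm26658 overlaps Syt4 on the opposite strand. Syt6 is overlapped by Gm43066 on the same strand and by Atg4a-ps on the opposite strand. Syt7 is overlapped by AC124169.1 on the same strand and by Gm26859 on the opposite strand. Reads of these overlapping genes were not told apart here.

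Of the complexins, Cplx1 fell by 0.62 ± 0.16 (log2 fold) in cholinergic nuclei (adjusted p = 0.00392), at 16.9, 18.9, 25.6 and 23.1 CPM there against 28.3, 27, 34.1 and 37.6 CPM in GABAergic nuclei. Each cholinergic library was below each GABAergic one. In Slc17a6 nuclei Cplx1 stood at 30.1, 30.2, 36.7 and 49.8 CPM, a log2 fold of 0.46 ± 0.14 (adjusted p = 0.0196) that did not pass without female 2 (log2 fold 0.39), male 1 (0.47) or male 2 (0.49), nor among nuclei of 3000 to 10000 UMIs (0.07). Cplx2 stood at 57.8, 49.7, 30.4 and 74.4 CPM in cholinergic and 57.7, 57.7, 40.4 and 67.1 CPM in GABAergic nuclei. Its log2 folds were -0.04 ± 0.13 in cholinergic, -0.02 ± 0.11 in GABAergic and 0.06 ± 0.12 in Slc17a6 nuclei, and none passed. Cplx3 gave 26 UMIs in all GABAergic nuclei of the 4 libraries together, 3 in oligodendrocytes, 1 in cholinergic nuclei and 0 in Slc17a6 nuclei, where a count of 0 allows up to 0.269 CPM, a limit that covers counting error only.

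In all, 7 of the 9 tested genes passed in cholinergic nuclei (1 higher, 6 lower) where 23% of all tested genes passed (11.5% in each direction). In GABAergic nuclei 5 of 9 passed (3 higher, 2 lower) against 15.3% of all genes (8.29% higher, 7.02% lower), and in Slc17a6 nuclei 4 of 9, all higher, against 11.8% of all genes (6.03% higher, 5.78% lower). Without female 2, Syt10 also passed as lower in Slc17a6 nuclei (log2 fold -0.51). The median log2 fold of the 9 was -0.62 in cholinergic, 0.16 in GABAergic and 0.40 in Slc17a6 nuclei, and that of all genes -0.02, 0.02 and -0.01. The 3 comparisons share libraries and each serves as part of the reference of the others, so the values are given side by side and not as separate evidence.

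**Figure D2:**
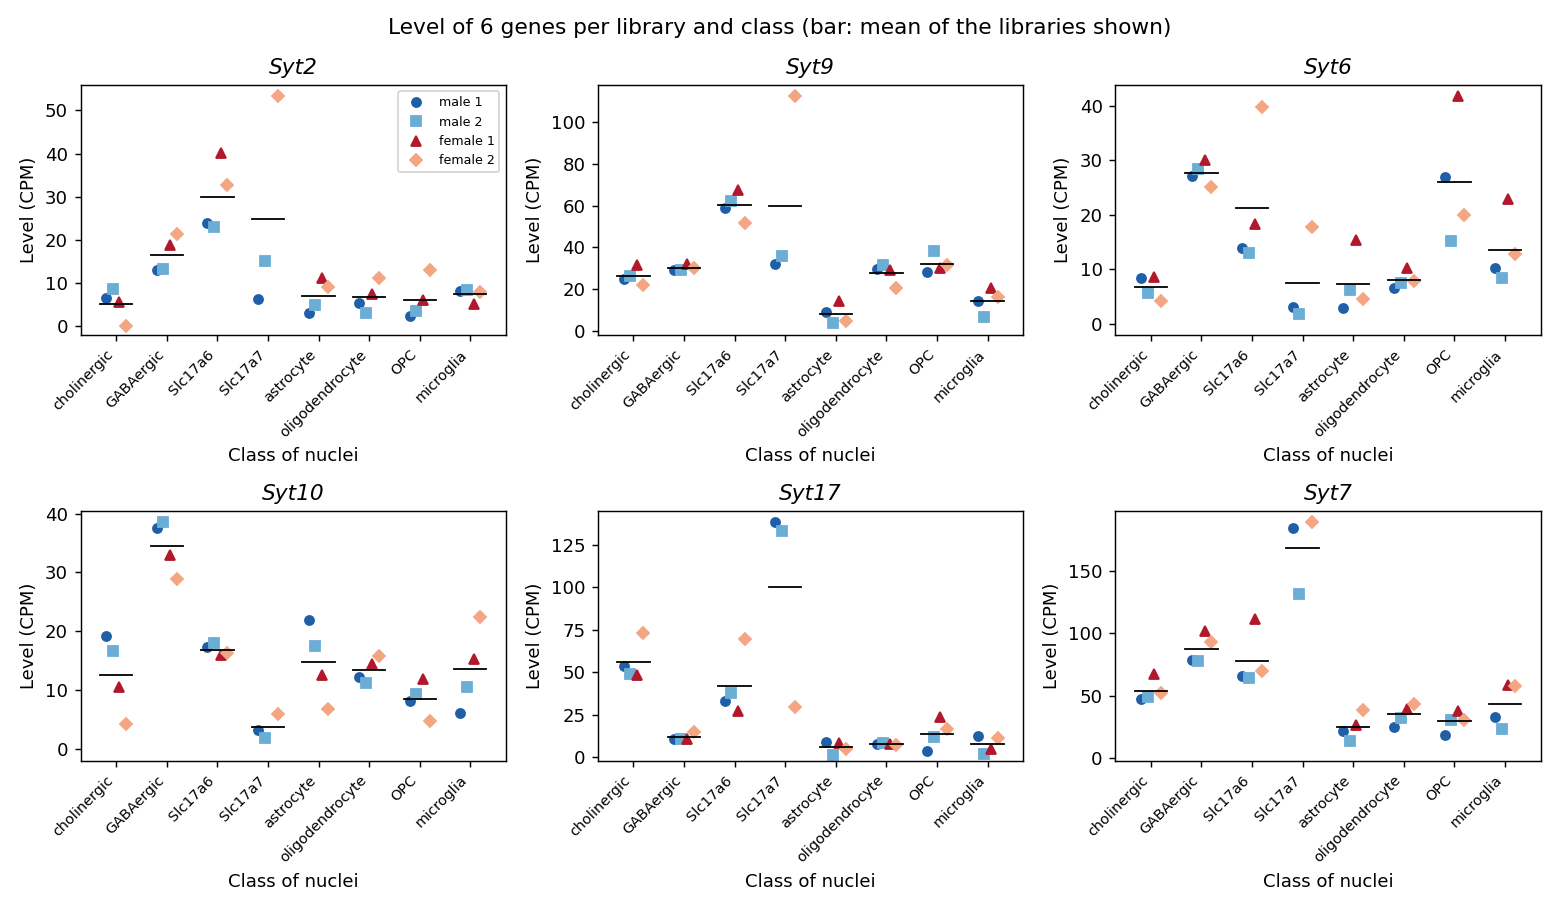
Level in CPM (vertical axis) of 6 synaptotagmins in the 8 main classes (horizontal axis), 1 point per library with at least 20 nuclei of the class, and a bar at their mean. Syt2 and Syt9 peak in Slc17a6 nuclei among the classes with 4 libraries, Syt10 in GABAergic nuclei, and Syt17 is low in GABAergic nuclei and in glia.

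Slc17a7 neurons, few in number, were compared in male 1, male 2 and female 2 (36, 27 and 22 nuclei). Syt7 stood at 184, 131 and 189 CPM there, above every library of the GABAergic, cholinergic and Slc17a6 classes, with a log2 fold of 1.43 ± 0.14 (adjusted p = 9.52e-10, edgeR, 3 libraries). Syt17 stood at 138 CPM (male 1) and 133 CPM (male 2) but 29.6 CPM, from 5 UMIs, in female 2. Its log2 fold was 2.09 ± 0.25 (adjusted p = 4.69e-08), and the differences from the other neuron classes within libraries were 2.32, 2.24 and -0.51, so the direction did not hold in female 2. Cplx2 fell by 1.17 ± 0.26 (adjusted p = 0.00108), at 17.5, 26.3 and 41.4 CPM, and did not pass without male 1 (log2 fold -0.98). Syt10 passed as lower on 2, 1 and 1 UMIs, too few for its size to be read. In all 4 of 9 genes passed (2 higher, 2 lower) against 13.2% of all genes (7.69% higher, 5.49% lower). Syt6 also passed as lower in 3 of 9 alternatives (-2.27 without female 2), and Syt17 stood at 2.47 without female 2.

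Set against the mean of the 4 glial classes, the mean of the 3 neuron classes passed as higher for 8 of the 9 tested genes. In this comparison 67.7% of all genes passed, 30.8% as higher and 36.9% as lower. Not every neuron class stood above glia. Cholinergic nuclei had a lower mean level than each glial class for Syt2 (5.22 CPM) and Syt6 (6.72 CPM). Within libraries, the difference of the means was below 0 for Syt2 in female 2 (-0.30) and for Syt6 in female 1 (-0.22). The log2 folds were 1.95 ± 0.16 for Syt17, 1.44 ± 0.13 for Cplx1, 1.33 ± 0.10 for Cplx2, 1.27 ± 0.09 for Syt7, 1.20 ± 0.22 for Syt2, 1.11 ± 0.11 for Syt9, 0.77 ± 0.16 for Syt10 and 0.51 ± 0.20 for Syt6 (adjusted p from 4.99e-14 to 0.0247, edgeR). The exception was Syt4, with 0.18 ± 0.08 (adjusted p = 0.0505), which passed without female 1 (0.23), without female 2 (0.27), with no filter on low counts (0.32), with 1 more UMI per class rule (0.20) and among nuclei of 3000 to 10000 UMIs (0.74, with no cholinergic or microglial nuclei). Syt6 did not pass without male 1 (0.41) or male 2 (0.50), scaled by library totals alone (0.40) or with 1 more UMI per class rule (0.52).

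Neuronal transcripts were also counted in nuclei classed as glia, and the summed neuron markers Snap25, Rbfox3, Syt1, Syn1 and Meg3 were set beside the members as a measure of it. In oligodendrocytes these markers stood at 32.2% to 45.1% of their level in GABAergic nuclei. Syt7 (32.1% to 46.7%), Cplx1 (35.2% to 47.1%), Cplx2 (38.3% to 51.8%), Syt2 (22.4% to 52.6%), Syt10 (28.8% to 54.4%) and Syt6 (24.1% to 33.8%) overlapped that range. All of these but Syt6 ran past its top, and the source of their signal in oligodendrocytes was not tested. Syt4 lay apart, at 98.7% to 120% in oligodendrocytes and 111% to 129% in microglia, where the neuron markers were at 34.3% to 51.3%. Syt9 lay above the markers in oligodendrocytes (67.8% to 107%) and in OPCs (93.8% to 131%, markers 19.7% to 36%), and Syt17 in oligodendrocytes (49.3% to 75.7%). Syt6 lay above them in OPCs, at 53.2% to 139%.

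**Figure D3:**
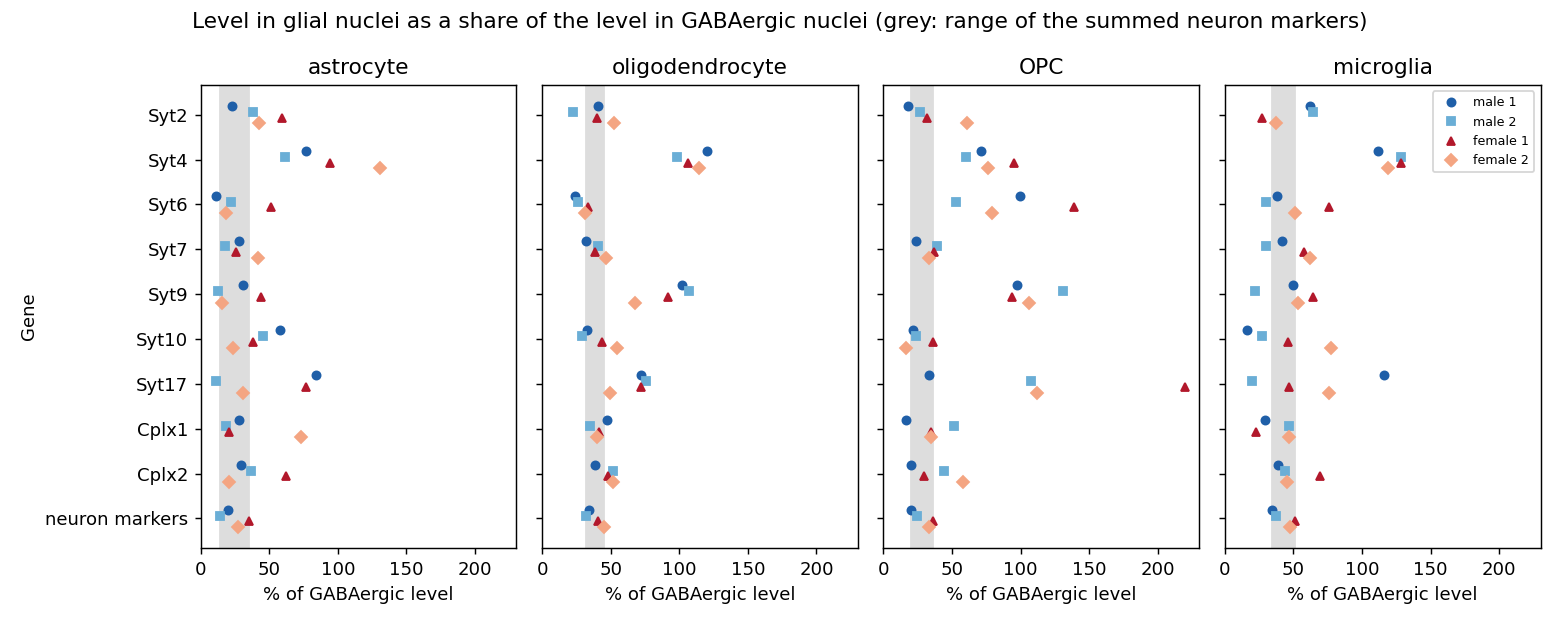
Level in each glial class as a percentage of the level in GABAergic nuclei of the same library (horizontal axis), for 9 genes and the summed neuron markers (vertical axis), 1 point per library, with a grey band over the range of the neuron markers. Syt4 lies to the right of the band in all 4 classes, Syt9 in oligodendrocytes and OPCs and Syt6 in OPCs, and Cplx1 overlaps it in each class.

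Among glia, Syt6 and Syt9 were higher in OPCs. Syt6 stood at 26.9, 15.1, 41.8 and 20 CPM in OPCs and at 6.52, 7.54, 10.2 and 7.86 CPM in oligodendrocytes, with no overlap, and was 1.51 ± 0.31 higher (log2 fold) in OPCs than in the other glia (adjusted p = 0.000233). Syt9 was 1.21 ± 0.20 higher in OPCs (adjusted p = 9.41e-06), at 28.1, 38.4, 29.9 and 31.7 CPM, and 0.90 ± 0.16 higher in oligodendrocytes (adjusted p = 2.02e-05), at 29.5, 31.5, 29.3 and 20.3 CPM. In astrocytes Syt9 stood at 8.93, 3.77, 14 and 4.57 CPM and fell by 1.45 ± 0.27 (adjusted p = 3.93e-05). Within the oligodendrocyte lineage Syt9 ranges of OPCs and oligodendrocytes overlapped. With 1 more UMI asked of every class gene the astrocyte value was -0.40 and did not pass.

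Syt4 was 0.35 ± 0.11 higher in oligodendrocytes (adjusted p = 0.0109) than in the other glia, and its log2 fold in OPCs was -0.47 ± 0.15 (adjusted p = 0.0167). Neither passed without male 1 (0.25 and -0.47) or without male 2 (0.32 and -0.43), and the OPC value also not with 1 more UMI per class rule (-0.25) or among nuclei of 3000 to 10000 UMIs (-0.54). In microglia 0 of 9 genes passed, Syt9 alone had an unadjusted p below 0.05 (log2 fold -0.66 ± 0.27; -0.86 and past the threshold without female 2), and the count by DESeq2 was also 0. With library totals alone 2 passed there, both higher (Syt4 0.47, Syt7 0.58), and with 1 more UMI per class rule 2 (Syt7 0.62, Syt9 -1.34). Of all genes 38% passed in microglia, 18.7% as higher and 19.3% as lower. Of the 9 genes, 3 passed in OPCs (2 higher, 1 lower) against 32.7% of all genes (17.6% and 15%), 2 in oligodendrocytes, both higher, against 38.9% (18.9% higher, 20% lower) and 1 in astrocytes, lower, against 39.2% (18.8% higher, 20.5% lower). Other settings added calls in glia. In OPCs, Syt17 (0.86, not past the threshold) passed in 5 of 10 alternatives with log2 folds of 0.83 to 1.49 there, 1.44 without male 1 and 0.85 by DESeq2 among them. Without female 2, Syt7 (-0.54) and Syt10 (0.82) passed in astrocytes and Syt6 (-0.72) and Cplx1 (0.58) in oligodendrocytes; Syt7 passed in 3 of 10 alternatives and Syt6 in 2 of 10.

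Within the GABAergic neurons, Drd2 and Moxd1 nuclei had the most genes past the threshold. Penk, Adora2a, Gpr6 and Gpr52, markers of indirect-pathway striatal neurons, summed to 143 to 375 CPM in Drd2 nuclei and 34.9 to 88.9 CPM in GABAergic nuclei of no subclass. The markers listed for Drd1 nuclei summed to 446, 412 and 603 CPM in Drd1 nuclei of male 1, male 2 and female 2, the libraries compared, and to 257, 261 and 342 CPM in nuclei of no subclass; Moxd1 had no list. In Drd2 nuclei 6 of 9 genes passed (4 higher, 2 lower) against 19.5% of all genes (11.3% higher, 8.14% lower). Syt10 stood at 43.3, 66.9, 72.1 and 46.8 CPM there, against 29.1, 24.6, 13.7 and 19.6 CPM in Moxd1 and 28.3, 22.1, 18.9 and 15.1 CPM in Tshz1 nuclei, with no overlap. The log2 fold of Syt10 in Drd2 nuclei was 1.11 ± 0.12 (adjusted p = 1.63e-08, edgeR). Syt7, at 128, 111, 111 and 119 CPM, was 0.61 ± 0.09 higher (adjusted p = 2.66e-06, edgeR), and above the mean of the other subclasses in 3 of 4 libraries. Cplx2, at 74.5, 78.7, 70.8 and 90.9 CPM, was 0.55 ± 0.09 higher (adjusted p = 2.79e-05) and above the mean of the other subclasses in 4 of 4 libraries. Syt6 was 0.58 ± 0.13 higher (adjusted p = 0.00174), in 3 of 4 libraries, and did not pass without male 1 (0.44). Syt4 fell by 0.40 ± 0.10 (adjusted p = 0.00199) and Syt17 by 0.73 ± 0.22 (adjusted p = 0.0138), lower in 4 of 4 libraries each. The first did not pass without male 2 (log2 fold -0.30) and the second without female 1 (-0.23) or male 1 (-0.62), or with 1 more UMI per class rule (-0.53). Syt9 (-0.46 ± 0.17) did not pass (adjusted p = 0.0556), and passed in 5 of 10 alternatives, without female 2 (-0.55) among them.

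In Moxd1 nuclei Syt17 and Cplx1 were higher. Cplx1 stood at 34.1, 37.6, 76.7 and 71 CPM in Moxd1 nuclei and at 28.8, 22.6, 29.3 and 24.7 CPM in Drd2 nuclei, with no overlap. Its log2 fold in Moxd1 nuclei was 0.60 ± 0.13 (adjusted p = 0.000952), and that of Syt17, at 22.6, 18.8, 19.2 and 12.2 CPM, was 1.04 ± 0.19 (adjusted p = 0.000106). Both were above the mean of the other subclasses in 4 of 4 libraries. Syt6 was 0.44 ± 0.15 higher (adjusted p = 0.0376), and did not pass without female 1 (0.52) or male 2 (0.36), or among nuclei of 3000 to 10000 UMIs (0.62). Syt7 fell by 0.63 ± 0.11 (adjusted p = 3.41e-05, edgeR), but not past the threshold among nuclei of 3000 to 10000 UMIs (-0.20). The other named subclasses have too few nuclei at that depth. For Syt6 and Syt7 alike, this alternative therefore sets Moxd1 nuclei against GABAergic nuclei of no subclass alone. Syt10 fell by 0.56 ± 0.15 (adjusted p = 0.00946; -0.48 without male 2, not passing). Syt9 fell by 0.60 ± 0.18 (adjusted p = 0.0187), with 2.74 CPM in female 1 and 34.3 CPM in female 2, and did not pass without female 1 (-0.35), male 1 (-0.54) or male 2 (-0.65), nor by DESeq2 (-0.60). Cplx2, at -0.31 ± 0.11 (adjusted p = 0.0429), passed in 3 of 10 alternatives. Leaving out any 1 of the 4 libraries ended its call, with log2 folds from -0.44 (without male 1) to -0.14 (without female 1), -0.31 without female 2 and -0.28 without male 2. In Moxd1 nuclei 7 of 9 genes passed (3 higher, 4 lower), against 17.8% of all genes (8.13% higher, 9.62% lower).

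Tshz1 nuclei had 3 of 9 genes past the threshold against 10.4% of all genes, 2 of them higher and 1 lower. Syt9 was 0.61 ± 0.15 higher (adjusted p = 0.0043), Syt7 0.29 ± 0.09 higher (adjusted p = 0.0344) and Syt10 fell by 0.61 ± 0.14 (adjusted p = 0.00317). Without male 2 none of the 3 passed (log2 folds 0.43, 0.25 and -0.53). Syt9 also did not pass without male 1 (0.57) or by DESeq2 (0.52), nor Syt7 without female 1 (0.19). Drd1 nuclei, in male 1, male 2 and female 2, shared the high Syt10 of Drd2 nuclei, at 72, 61.7 and 44.5 CPM and a log2 fold of 0.95 ± 0.14 (adjusted p = 9.61e-06). This did not pass among nuclei of 3000 to 10000 UMIs (0.36). Syt17 fell by 1.37 ± 0.33 in Drd1 nuclei (adjusted p = 0.00649) on 6.36, 1.86 and 3.87 CPM, and Syt6 by 0.74 ± 0.23 (adjusted p = 0.044). Syt17 did not pass without male 2 (-0.94), among nuclei of 3000 to 10000 UMIs (-2.80) or with 1 more UMI per class rule (-1.12). Syt6 did not pass without female 1 (-0.73), female 2 (-0.60) or male 2 (-0.50), or with 1 more UMI per class rule (-0.57). Drd1 nuclei so had 3 of 9 genes past the threshold (1 higher, 2 lower) against 5.46% of all genes (3.2% higher, 2.26% lower). In Sst nuclei 0 of 9 passed against 3.1% of all genes (1.72% higher, 1.38% lower), 1 (Cplx2, log2 fold -0.63 ± 0.21) had an unadjusted p below 0.05, and by DESeq2 the count was also 0. Under other settings, 2 genes passed with nuclei of several subclasses kept in each (Syt6 0.76, Cplx2 -0.62), 1 with no filter on low counts (Cplx2 -0.66) and 1 with 1 more UMI per class rule (Syt10 -1.68).

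**Figure D4:**
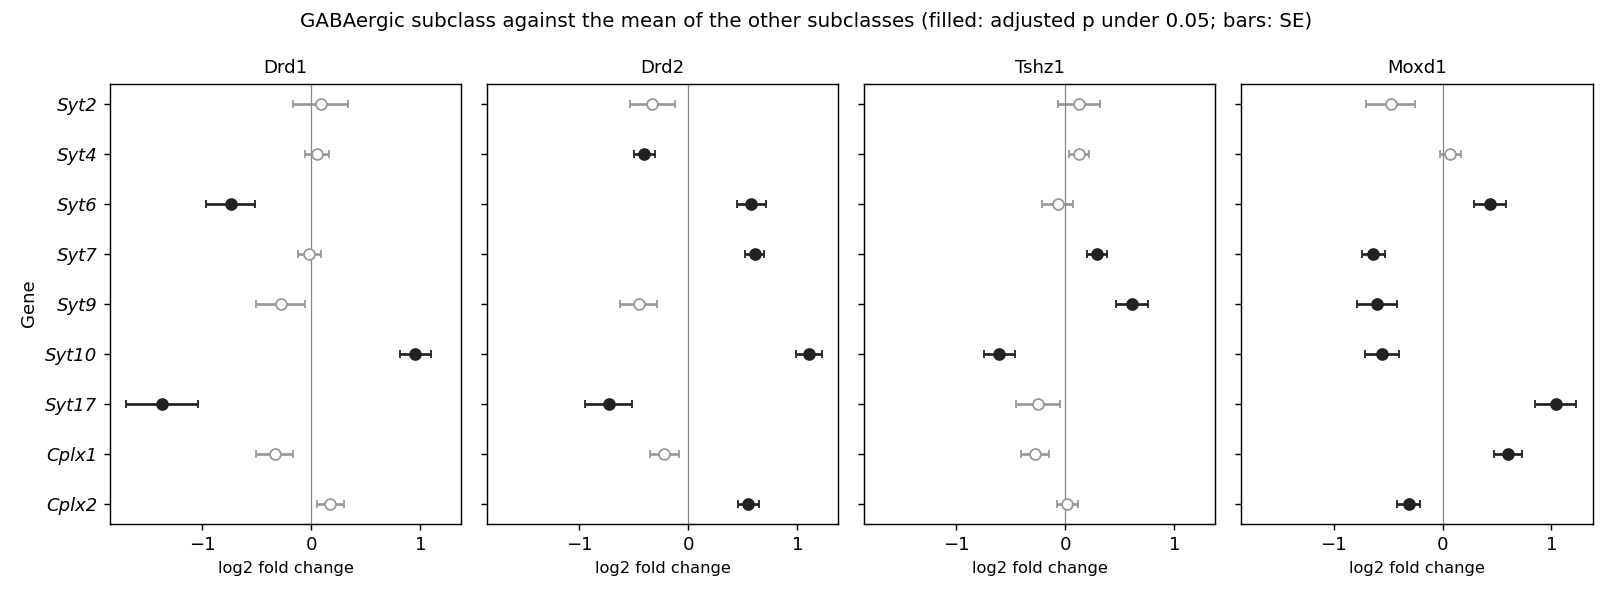
Log2 fold change (horizontal axis) of 9 genes (vertical axis) in each of 4 GABAergic subclasses against the mean of the other subclasses, with SE bars. Filled points passed an adjusted p of 0.05 in edgeR. Syt10 is to the right in Drd1 and Drd2 nuclei and to the left in Tshz1 and Moxd1 nuclei.

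Males and females were compared within each neuron class, the question the study names. No gene of the 10 passed: 0 of 8 tested in cholinergic nuclei, 0 of 9 in GABAergic and 0 of 9 in Slc17a6 nuclei, where 0.0498%, 0.00545% and 0.0654% of all genes passed. Higher in males were 0.0398%, 0% and 0.0409% of all genes, and lower 0.00996%, 0.00545% and 0.0245%. An unadjusted p below 0.05 was reached by 1, 1 and 3 of them, and DESeq2 passed 0 in each class. By level in GABAergic nuclei, both males lay below both females for Syt2, Syt7, Syt9, Syt17 and Cplx1 and above both for Syt4 and Syt10, while Syt6 and Cplx2 overlapped. The share of all genes without such overlap is not given here, so these levels are a description and not a result about the listed genes. For Syt4 the females stood far apart from each other (35.6 and 64.6 CPM) and the males did not (66.2 and 67.4 CPM). The log2 folds of male over female in GABAergic nuclei were -0.53 ± 0.14 for Syt2 (adjusted p = 0.286), -0.30 ± 0.11 for Cplx1 (0.324 adjusted), -0.25 ± 0.13 for Syt7 (0.432 adjusted), 0.37 ± 0.16 for Syt10 (0.352 adjusted) and 0.51 ± 0.27 for Syt4 (0.434 adjusted). In Slc17a6 nuclei they were -1.09 ± 0.36 for Syt6 (adjusted p = 0.299), -0.59 ± 0.22 for Syt2 (0.345 adjusted) and 0.76 ± 0.27 for Syt4 (0.332 adjusted). In cholinergic nuclei the largest was Syt10, 1.29 ± 0.49 (adjusted p = 0.491), at 19.3 and 16.6 CPM (males) against 10.4 and 4.19 CPM (females). Oligodendrocyte markers in GABAergic nuclei moved with sex, at 99 and 101 CPM (males) against 256 and 208 CPM (females), as did depth, and their part in these values was not tested.

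The sex comparison turned on the spread between the 2 females. Listed genes are named below where they passed with 1 female left out. Their number is not read, because the share of all genes in those fits is not given. Without female 1, Syt4, Syt6, Syt9 and Syt10 were higher in GABAergic nuclei of males by the fitted fold, and Syt2 and Cplx1 were lower. For Syt9 that fold (0.18) goes against the levels, 28.9 and 29.3 CPM in the males and 29.9 CPM in female 2, so its direction is not read. Without female 2, Syt4, Syt10 and Cplx2 were higher there and Syt2, Syt7 and Cplx1 lower. In Slc17a6 nuclei the log2 folds without female 1 were -1.44 for Syt6 and -0.86 for Syt17. Without female 2 they were 1.32 for Syt4, 0.83 for Cplx2, -0.76 for Syt2 and -0.76 for Syt7. In cholinergic nuclei they were 2.16 for Syt10 without female 1 and 0.82 for Cplx2 without female 2. Syt2 has no size to read in cholinergic nuclei without female 1, as the remaining female held 0 UMIs. Those fits have 1 female library, assumed to vary like the males, and they passed 9996 and 11295 genes in GABAergic nuclei. Syt4 was 0.27 higher in males than in female 2 alone and 0.94 higher than in female 1 alone (log2 fold). Syt2 was lower in males either way, at -0.48 and -0.48, Cplx1 at -0.23 and -0.27, and Syt10 higher, at 0.62 and 0.24. A test of whether the sex difference varied between classes passed for 0 of 9 genes (edgeR; 0 by DESeq2; 3 with an unadjusted p below 0.05) against 4.14% of all genes. The lowest of these was Syt10 (F = 3.99, adjusted p = 0.0785, edgeR). With no filter on low counts 1 of 10 listed genes passed. Among nuclei of 3000 to 10000 UMIs, with no cholinergic or microglial nuclei, 2 of 9 passed. The share of all genes in those fits is not given, so these numbers are not read. Without female 1 the 0 of 9 did not hold: Syt10, Syt2 and Syt6 were past the threshold, and their number is likewise not read.

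**Figure D5:**
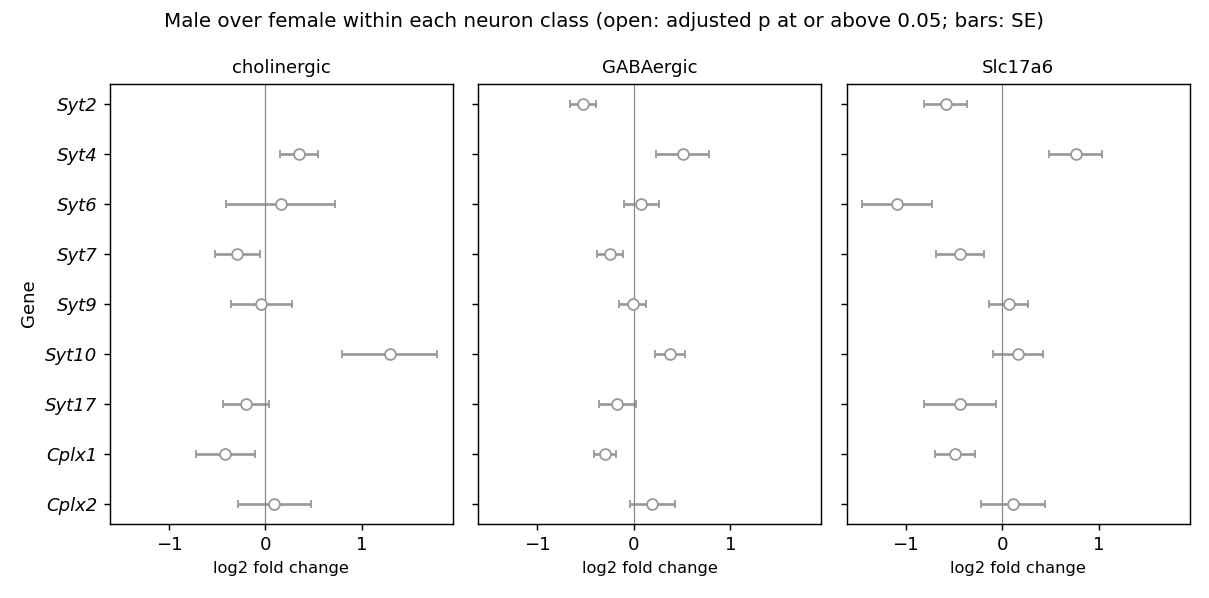
Log2 fold of male over female (horizontal axis) for the tested genes (vertical axis) within 3 neuron classes, from 2 male and 2 female libraries, with SE bars. All points are open, as no gene passed an adjusted p of 0.05; Syt2 has no point in cholinergic nuclei, where it had too few counts.

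The other genes of the release machinery, 61 listed by name, were set against the same comparisons. In cholinergic nuclei 29 of 55 tested passed (16 higher, 13 lower) beside 23% of all genes, led by Rab3b (2.40 ± 0.12), Sv2c (2.25 ± 0.12) and Rimbp2 (2.02 ± 0.09) upward and Sv2b (-1.91 ± 0.19), Syt12 (-1.39 ± 0.30) and Synpr (-1.22 ± 0.16) downward. Rab3b is a vesicle GTPase, Sv2b and Sv2c are alternative vesicle glycoproteins, and Rimbp2 links calcium channels to the active zone. In Slc17a6 nuclei 17 of 55 passed (7 higher, 10 lower) beside 11.8% of all genes, with the vesicle glycoproteins in the other order, Sv2b at 1.96 ± 0.14 and Sv2c at -1.83 ± 0.14. In GABAergic nuclei 24 of 55 passed (8 higher, 16 lower) beside 15.3% of all genes, with Unc13c, a priming factor, at -1.43 ± 0.15. In Moxd1 nuclei Rab3b (1.32 ± 0.14) and the Rab3 effector Rph3a (1.28 ± 0.09) led the higher genes, and in Drd2 nuclei they were among the lower (-1.64 ± 0.17 and -0.48 ± 0.10). Against glia, neurons had 47 of 55 higher and 5 lower, where 30.8% of all genes were higher and 36.9% lower, with a median log2 fold of 1.16 beside -0.07 for all genes.

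The genes most like each member were found by Pearson correlation of log2(CPM + 1), centred by library, over 36 points of 9 classes in 4 libraries that share depth and library, so that r is a description. Syt7 was most like Grin2a (0.941) and Cplx2 most like Ndrg4 (0.913), while Cplx1 came nearest to Kcnc1 (0.901), the potassium channel of fast-spiking cells. Syt6 was nearest to Grm5 (0.884), Syt10 to Strip2 (0.852), and Syt17 to 9330158H04Rik (0.845), Stmn2 (0.839) and Nos1 (0.833). Lower values were the best for Syt2 (Gm28050, 0.781), Syt9 (Khdrbs2, 0.747) and Syt4 (Gm26782, 0.735). Between members the highest r was that of Syt7 and Cplx2 (0.835) and the lowest that of Syt4 and Syt6 (-0.378).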

How the data were processed

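The authors deposited whole-number UMI counts per gene and barcode for 4 libraries. The submitters' processing notes list mm10, Seurat 5 and Cell Ranger 6.0.1, whereas per the file headers the software was 9.0.1 in male libraries, with 7.0.0 in female 1 and 7.2.0 in female 2. The labels' protocols name 3′ reagents of both version 2 and version 3. No source used here states whether counting took in introns or strand.

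Nuclei with 500 to 8000 genes and under 5% mitochondrial counts were kept and classed by at least 2 raw UMIs of the class genes (3 for Tshz1 and Sst). Nuclei past the cholinergic threshold counted as cholinergic whatever their Gad1, Gad2, Slc17a6 or Slc17a7 UMIs; nuclei otherwise in more than 1 class, 5.16% to 13.2% of a library, or in more than 1 GABAergic subclass were dropped; no doublet caller was run. UMIs were summed per class and library where every library had 30 nuclei, and tested with edgeR 4.0.16 in R 4.3.3 (quasi-likelihood, TMM scaling, low counts filtered, two-sided, Benjamini-Hochberg over all genes). Class fits had library as a block, sex fits only sex. Deposited counts per library were 158132452, 144035342, 53098268 and 53679351, and the script was tested on simulated data. Slc17a7, Drd1 and Sst were fitted from 20 nuclei, chosen after seeing the data. Alternatives were other scalings, no filter, DESeq2 1.42.0, each library left out, nuclei of 3000 to 10000 UMIs, 1 more UMI per class gene and a replicate block. Replicate numbers only name libraries. Thinned shares have exact Clopper-Pearson 95% intervals, covering counting error only. Every listed gene was tested in each comparison where its counts allowed, and those that passed are named. Of those that did not pass, only some are named. Other release genes, Syt1 excepted, are named from the 3 largest folds per direction past the threshold. Genes and lists were chosen with earlier results of these data known.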

Additional observations from a re-analysis of the deposited data

Results flagged for a closer look

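Of the release genes followed, Syngr1, a vesicle membrane protein, met the test that its male to female difference varies between cell classes (edgeR interaction over the classes, adjusted p = 0.0466). The difference between the classes was not taken apart further, and its direction is not given. Among the 55 other release genes tested it was the 1 that passed, and no synaptotagmin or complexin of the list did (0 of 9), while 4.14% of all genes passed.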

How the results depend on the processing

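Of the 53 differences of single genes that passed, 464 of 519 values under alternative settings passed with the same direction, 55 did not pass and 0 changed sign. Of the 108 that did not pass, 897 of 1087 values stayed so with the same sign, 127 changed sign and still did not pass, 62 passed with the same sign, and 1 changed direction past the threshold: Syt9 in the GABAergic sex comparison ranged from -0.10 (without female replicate 2) to 0.18 (without female replicate 1) when 1 library was left out. Counts of all genes called moved as follows. Leaving out 1 library gave 271 to 767 genes for Drd1, 1549 to 2596 for Drd2, 1199 to 1855 for GABAergic, 1360 to 2377 for Moxd1, 925 to 1428 for Slc17a6, 824 to 1678 for Slc17a7, 174 to 427 for Sst, 699 to 1554 for Tshz1, 34 to 876 for the interaction of sex and class, and 4 to 1644, 2 to 11295 and 1 to 2338 for sex in cholinergic, GABAergic and Slc17a6 nuclei, against main counts of 731, 2573, 1899, 2346, 1465, 1685, 415, 1377, 514, 5, 1 and 8. Nuclei of 3000 to 10000 UMIs gave 3227 for astrocytes (main 4869), 209 for Drd1, 344 for GABAergic, 344 for Slc17a6, 28 for Sst, 4 for GABAergic sex, 1806 for the interaction, 5463 for neurons against glia (main 8400), 2963 for oligodendrocytes (main 4827) and 2551 for OPCs (main 4052). With no filter there were 2853 for GABAergic, 1132 for the interaction and 19, 3 and 275 for sex in cholinergic, GABAergic and Slc17a6 nuclei. DESeq2 gave 100, 903 and 153 for the same 3. With 1 more UMI in each class rule there were 425 for Drd1, 247 for Sst, 135 for the interaction and 10, 2 and 23 for sex. The cause was not tested, except that fewer nuclei or samples enter some of these fits. Library totals alone moved the median of all genes from -0.05 to 0.18 in microglia and from -0.07 to -0.18 for neurons against glia. With a replicate block the sex counts were 62, 4 and 227, and no call of a listed gene changed; the numbers only name libraries, and deviations of same-numbered GABAergic libraries correlated at 0.234 over 9150 genes. Classes too small at a given depth also left the reference of the others. The depth alternative could not be fitted for cholinergic, microglia, Slc17a7, Drd2 and Tshz1 nuclei, nor the stricter class rule for Tshz1 and Moxd1, and sex in Slc17a7 nuclei not at all, with too few nuclei. Depth limits the rare classes most: Syt2 in cholinergic nuclei rests on 32 UMIs.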

Other observations

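GABAergic nuclei with 2 or more UMIs of Syt17 shared other transcripts, described here by a rule chosen after the values were seen and with no test. There were 129, 134, 32 and 61 such nuclei in male 1, male 2, female 1 and female 2. Against GABAergic nuclei without Syt17 they had more Mboat1 (20, 19, 45.3 and 62 against 1.05, 1.12, 3.45 and 1.89 CPM), more Rxfp2 (86.1, 80, 87.1 and 147 against 7.67, 6.17, 9.19 and 14.6 CPM) and more Megf10 (115, 113, 139 and 136 against 10.6, 10.1, 16.4 and 14.7 CPM). Gbx1 and Lhx8, transcription factors known from basal forebrain cholinergic neurons, were also higher next to Syt17: Lhx8 stood at 48.6, 54.6, 41.8 and 92.4 CPM against 6.6, 7.02, 8.69 and 10.9 CPM. The cholinergic marker Slc18a3 was not, at 0 CPM in each library against 0.04, 0.08, 0.17 and 0.47 CPM. Chat stood at 0.37, 0.38, 0 and 0 against 0.66, 0.36, 3.29 and 2.05 CPM. Slc5a7 stood at 0.37, 0, 0 and 0 against 0.64, 0.57, 1.89 and 1.47 CPM. The class rule itself keeps Chat and Slc5a7 low in GABAergic nuclei. Nuclei with 2 or more UMIs were deeper, with a median of 16846 against 12260 UMIs in male 1, and the part of depth was not tested.

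The nuclei with 2 or more UMIs of Syt2, 130, 140, 64 and 83 in number, had more Gm26633, 6330411D24Rik and Mctp2, and Lhx8 at 38.3, 30.4, 32.4 and 45.3 CPM against 7.83, 8.51, 9.52 and 13.7 CPM. Pvalb in the same nuclei was at 7.93, 3.3, 1.7 and 7.81 CPM against 0.343, 0.149, 0.292 and 0.434 CPM, from few UMIs. It was also higher next to Syt17, at 4.08, 2.28, 10.45 and 5.85 CPM against 0.523, 0.274, 0.279 and 0.526 CPM. Next to Cplx1 it was at 1.96, 1.27, 0 and 4.57 CPM against 0.352, 0.197, 0.595 and 0.398 CPM, lower in female 1. For Cplx1 the leading companions were Megf10, Syt2 and Lhx8, with Syt2 at 35, 36.3, 49 and 74 CPM against 7.62, 8.6, 15.9 and 12.4 CPM. Syt10 went with Pde1c, at 459, 402, 944 and 509 CPM against 94.1, 83.3, 228 and 77.3 CPM. Syt9 went with Npas1, a transcription factor of pallidal and basal forebrain GABAergic neurons, at 16.6, 17.6, 31 and 39.5 CPM against 5.35, 6.45, 13 and 15.6 CPM. Syt4 had no strong companion, its highest-ranked gene (2700069I18Rik) differing by a log2 of 0.45 in the library where it differed least.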
